A study of Homo sapiens with 24 samples.

Results

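The data described here are the transcriptome of the human acute myeloid leukaemia (AML) line UCSD-AML1 after decitabine (DAC), harvested at 144 h. The 6 libraries of this comparison were chosen by their labels from the 24 of the series: 3 of untreated cells and 3 of cells given 100 nM DAC. The medium of both groups was RPMI with GM-CSF at 5 ng/ml and 20% serum, and treated cells received fresh DAC with a new medium on each of 4 successive days. Total RNA was depleted of ribosomal RNA and sequenced in pairs with a stranded kit. The other libraries are of the AML line ELF-153, treated in the same way, and of an earlier harvest at 96 h. The labels call the 3 libraries of a group technical triplicates, and the line is 1 source, so every p-value rests on the scatter among such libraries rather than among separate cultures.

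DAC is a cytidine analogue that is built into DNA during replication and traps DNA methyltransferases there, so that methylation is lost over rounds of division. Genes that a methylated promoter keeps silent, such as cancer-testis antigens, are the known group that such drugs switch on, and leukaemic cells exposed to low doses are known to slow their division and to gain features of mature blood cells. UCSD-AML1 is an established line from an AML with a chromosome rearrangement that activates MECOM, the gene of the transcription factor EVI1.

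The libraries held 15.1 to 25.87 Mreads (mega-reads) assigned to transcripts, and mitochondrial ribosomal RNA took 38.7% to 58.4% of them. Replicate 3 stood apart in both groups: counts of untreated replicates 1 and 2 differed by a chi-square of 4 per degree of freedom, against 68.1 and 75.8 with replicate 3, and the treated ones by 7.4 against 126.9 and 100.5. Both of these libraries also had the lowest depth (15.1 and 15.17 Mreads) and the lowest share of mitochondrial ribosomal RNA (44.5% and 38.7%, against 51.6% to 58.4% in the other 4). Counts of genes are therefore also given without them. Of the markers of a myeloid progenitor line, MECOM, KIT, GATA2, CD34, CD33, SPI1 and PTPRC were present in untreated cells; MPO had 2 reads in all and CSF2RA was listed at 0. Of the markers of other cells, those of T cells summed to 0.884 to 1.19 in the untreated libraries, and the granulocyte gene ELANE, the B cell gene MS4A1 and the stromal gene DCN were at 0 in both groups. Other such markers were present in untreated cells: the B cell gene CD79A at 306 ± 23.2, the monocyte genes CSF1R at 171 ± 97.1 and FCN1 at 94.9 ± 3.97, and the granulocyte gene CTSG at 81.6 ± 4.58. The stromal gene PDGFRB was present too, at 343 ± 77.1, and was called lower with DAC, at 160 ± 26. The megakaryocyte markers summed to 5492 to 7113 before treatment.

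Each value is the sum of a gene's transcripts in the deposited scaled reads. A log2 change is the treated less the untreated mean of log2(value + 1), with its standard error, and understates the change of genes with low levels. Adjusted p-values are limma's over the 17180 genes tested, and the words rose and fell are kept for genes with an adjusted p below 0.05. Where a group had 3 or fewer reads over its 3 libraries, the log2 change is replaced by a lower bound or by the ratio of depth-scaled reads with its 95% counting interval; both cover counting error only. Reads appear to have been counted only where they were unique to a transcript, so levels are not compared between genes, and members of families with near-identical copies are uncertain.

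With DAC, 3450 genes rose (20.1% of those tested) and 4609 fell (26.8%), 46.9% of all tested genes together, and 2627 and 3559 of these changed at least 2-fold. The median log2 change of all genes was −0.14. Without replicate 3 of both groups 3082 genes rose and 4110 fell. The balance of rises and falls depended on the scaling: the deposited size factors gave 42.8% rises among the called genes, and edgeR with TMM factors, which moved the median of all genes by 0.28, gave 57.3% (4521 higher and 3365 lower). No gene called in both changed direction. Among the gene lists, the share that fell was highest for genes of mitosis (94.4%) and DNA replication (87.8%), and the lists with a high share of rises included megakaryocyte and platelet genes (80.6%) and AP-1 and immediate early genes (66.7%).

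**Figure D1:**
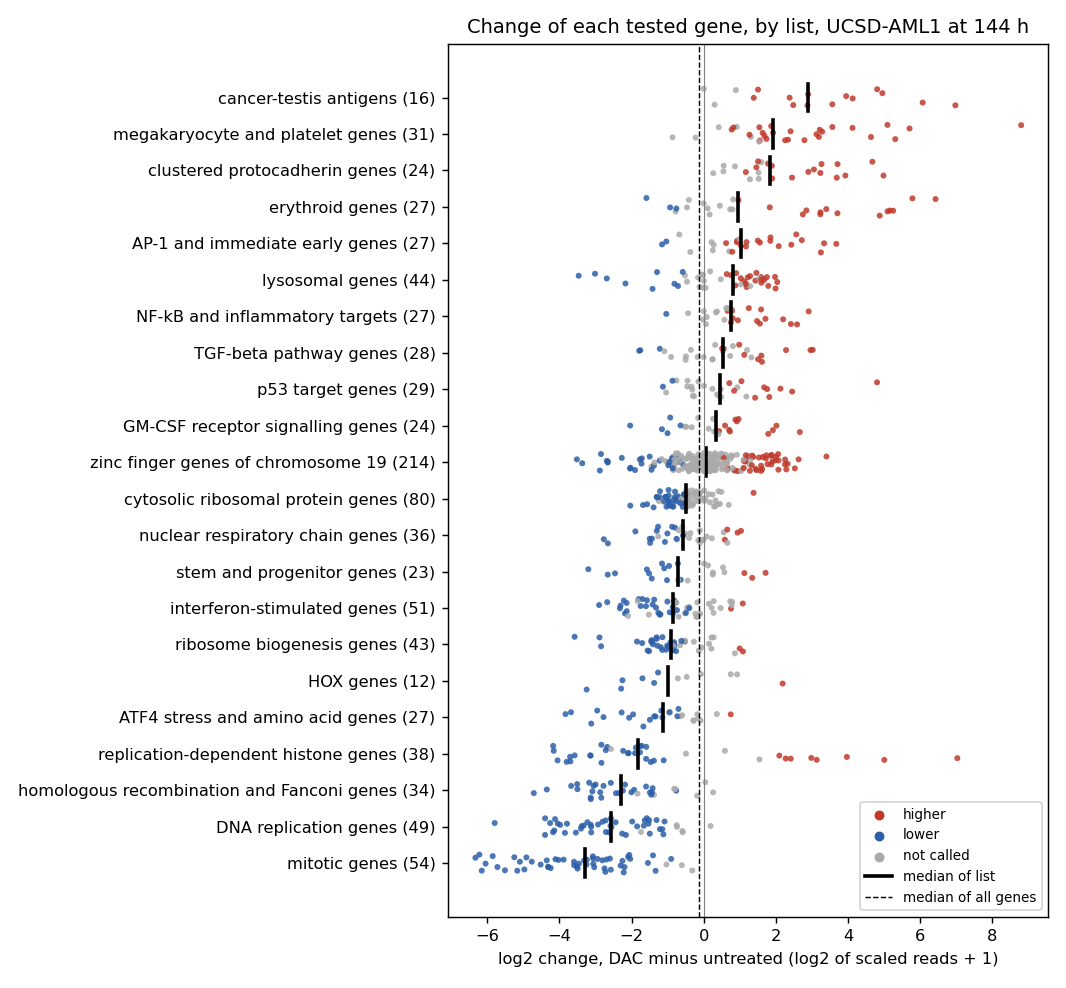
Log2 change with DAC (horizontal axis) of every tested gene in 22 gene lists, with the number tested in brackets; red points rose, blue points fell, grey points were not called, the black bar is the median of the list and the dashed line the median of all genes (−0.14). Mitotic genes have the lowest median (−3.28). Of the 16 cancer-testis antigens shown, 14 had 3 or fewer untreated reads and passed the filter only through libraries where they were high, which fixes the side on which they lie. The same holds for 10 of the 24 clustered protocadherin genes and 7 of the 27 erythroid genes.

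The cell division programme fell as a block. Of 54 mitotic genes tested, 51 fell and none rose (median log2 change −3.28, or −3.50 with genes near 0 at their bound), against 26.8% lower among all genes. ASPM, which organises the spindle poles, had 1476, 1691 and 333 in the untreated libraries and 26.9, 26.2 and 1.13 in the treated ones (log2 change −6.33 ± 1.07, adjusted p = 0.000525). KIF18A, a kinesin with a role in aligning chromosomes at the spindle equator, had 697, 824 and 256 and then 6.72, 9.62 and 3.38 (−6.22 ± 0.61, adjusted p = 8.79e-06). NDC80, a part of the kinetochore that grips microtubules, went from 1633, 1703 and 629 to 15.1, 18.4 and 14.6 (−6.15 ± 0.59, adjusted p = 7.46e-06). Every treated library lay below every untreated one for these 3 genes, which were picked among the largest falls. Untreated replicate 3 was the lowest of its group in each. CDK1, the kinase that drives entry into mitosis, kept 3 reads in all treated libraries: its levels of 123, 214 and 53.7 fell to 0.84, 1.75 and 0, a ratio of 145 (95% interval 49.3 to 706) between untreated and treated reads. CCNB2, a cyclin that partners it, likewise kept 3 reads (a ratio of 79.1 (95% interval 26.7 to 387)), as did the spindle kinesin KIF15 (a ratio of 58.5 (95% interval 19.7 to 286)). TOP2A, the topoisomerase that untangles sister chromatids, fell from 13194 ± 5662 to 222 ± 83.4 (mean ± SD, n = 3; −5.85 ± 0.52, adjusted p = 4.06e-06).

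The promoters of the 3 falls ASPM, KIF18A and NDC80 are shown because mitotic genes are known to share 2 short promoter elements, the CCAAT box and the cell cycle homology region. Each is the RefSeq window of 250 bases before to 50 after the start (GRCh38.p14), read 5′ to 3′ on the strand of the gene, with CCAAT and TTTGAA on either strand in capitals. ASPM lies at chr1:197146620-197146919 on the minus strand, KIF18A at chr11:28108107-28108406 on the minus strand and NDC80 at chr18:2571307-2571606 on the plus strand.
ASPM: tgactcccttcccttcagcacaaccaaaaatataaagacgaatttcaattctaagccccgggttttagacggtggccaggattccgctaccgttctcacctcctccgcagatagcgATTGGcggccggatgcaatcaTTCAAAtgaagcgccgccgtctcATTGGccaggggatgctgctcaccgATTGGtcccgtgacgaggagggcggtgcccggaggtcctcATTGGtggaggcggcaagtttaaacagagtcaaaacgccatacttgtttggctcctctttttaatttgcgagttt
KIF18A: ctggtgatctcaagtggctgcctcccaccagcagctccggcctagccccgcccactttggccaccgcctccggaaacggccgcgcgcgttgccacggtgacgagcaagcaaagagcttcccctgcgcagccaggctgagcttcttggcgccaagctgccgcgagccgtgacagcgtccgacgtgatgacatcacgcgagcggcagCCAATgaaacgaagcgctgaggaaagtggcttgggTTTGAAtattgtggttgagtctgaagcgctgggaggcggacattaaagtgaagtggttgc
NDC80: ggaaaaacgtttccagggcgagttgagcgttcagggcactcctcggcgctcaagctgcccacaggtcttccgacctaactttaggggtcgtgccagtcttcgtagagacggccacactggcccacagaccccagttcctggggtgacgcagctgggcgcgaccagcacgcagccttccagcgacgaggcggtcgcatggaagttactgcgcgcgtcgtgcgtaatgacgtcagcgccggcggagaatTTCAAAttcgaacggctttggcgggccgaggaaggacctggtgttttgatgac
All 3 windows hold TTTGAA once, and ASPM holds CCAAT at 4 places, all on the opposite strand. TTTGAA on either strand, the core of the cell cycle homology region, was found in 38 of 49 mitotic genes with a window (77.6%), against 9.78% of the 9076 tested protein-coding genes and 15.4% of all 27305 windows. Only 1 of 41 DNA replication genes had it (2.44%). CCAAT was present in 75.5% of mitotic, 56.1% of DNA replication and 37.2% of tested windows. A match is a description of letters and not evidence of a bound factor.

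DNA replication genes followed. Of 49 tested, 43 fell and none rose (median −2.58). DTL, which marks the licensing factor CDT1 for destruction, went from 362, 333 and 149 to 3.36, 10.5 and 1.13 (−5.79 ± 0.58, adjusted p = 9.79e-06). CDC6 and CDT1, which load the replicative helicase, fell from 924 ± 214 to 62.1 ± 3.69 (−3.85 ± 0.22) and from 1298 ± 373 to 92.3 ± 22.5 (−3.79 ± 0.25). The helicase subunits MCM2 (−3.13 ± 0.16) and MCM6 (−3.54 ± 0.22), the GINS subunits GINS1 (−3.98 ± 0.17) and GINS2 (−4.14 ± 0.16) and the chromatin assembly factor CHAF1B (−4.26 ± 0.17) fell in the same way. DSCC1, a clamp loader of sister chromatid cohesion, fell as well (−5.31 ± 0.69, adjusted p = 7.57e-05). Of 34 genes of homologous recombination and the Fanconi pathway, which repair crosslinks and broken forks, 27 fell and none rose (median −2.29). BRIP1, a helicase of that pathway, went from 401, 384 and 234 to 11.8, 14.9 and 20.3 (−4.35 ± 0.28, adjusted p = 2.24e-07), and the checkpoint kinase CHEK1 from 167 ± 69.5 to 13.1 ± 3.70 (−3.51 ± 0.33, adjusted p = 4.73e-06).

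Among 33 cyclins, kinases, inhibitors and E2F factors, 6 rose (18.2%) and 16 fell (48.5%), against 20.1% and 26.8% of all genes. With rescaling 10 or 11 rose. CCNA2, the cyclin of S phase and G2, showed 6053, 6392 and 3682 in untreated and 147, 104 and 105 in treated libraries (−5.47 ± 0.29, adjusted p = 4.54e-08). E2F1, which drives entry into S phase, fell from 849.9 ± 111 to 120.1 ± 18.6 (−2.82 ± 0.20, adjusted p = 4.99e-07) and the pocket protein gene RBL1 from 338 ± 70.0 to 31.4 ± 2.81 (−3.37 ± 0.21, adjusted p = 1.49e-07). CCND1, the cyclin D1 gene, rose from 313 ± 18.9 to 1153 ± 76.8 (1.88 ± 0.15, adjusted p = 8.84e-07), and CDK6, which pairs with it, fell from 2613 ± 779 to 983 ± 218 (−1.38 ± 0.24, adjusted p = 0.000582). CDKN1A, the p21 gene, went from 34.5, 26.8 and 68 to 135, 126 and 171 (1.82 ± 0.43, adjusted p = 0.00425); summed without retained-intron and processed transcripts the change was 0.82, adjusted p = 0.158. CDKN2A, the locus of p16 and ARF, rose from 19.9 ± 3.53 to 50.3 ± 7.68 (1.30 ± 0.23, adjusted p = 0.000535), and its neighbour CDKN2B had 0 reads untreated and 4 treated, which was not called. CDKN1B, the p27 inhibitor gene, fell (−1.12 ± 0.19, adjusted p = 0.000467).

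Histone genes split. Of 38 replication-dependent histone genes, whose transcripts normally accumulate in S phase, 26 fell and 8 rose (median −1.82). The shares were 68.4% and 21.1%, against 26.8% lower and 20.1% higher among all genes. The linker histone HIST1H1B went from 49171, 54159 and 63246 to 2798, 2608 and 3937 (−4.17 ± 0.22, adjusted p = 4.83e-08) and HIST1H2AG from 24707 ± 987 to 1507 ± 289.7 (−4.05 ± 0.21, adjusted p = 4.54e-08). HIST1H4B moved the other way, from 0.88, 0 and 0 to 141, 140 and 207 (a ratio of 479 (95% interval 85.5 to 18945)), as did HIST1H1A (a ratio of 122 (95% interval 21.4 to 4838)), a linker histone known from testis and thymus. HIST1H2AC rose from 142 ± 36.6 to 685 ± 150 (2.27 ± 0.26, adjusted p = 2.36e-05). Several histone genes are near copies of each other, so single members are uncertain.

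Megakaryocyte and platelet genes rose. Of 31 tested, 25 rose and none fell (median 1.92), against 20.1% higher among all genes. PF4, the chemokine stored in platelet alpha granules, had 196, 158 and 215 in untreated and 7770, 9775 and 12559 in treated libraries (5.70 ± 0.42, adjusted p = 8.98e-07). VWF, the adhesive factor of platelets and endothelium, had 1398, 1047 and 2622 and then 30674, 39254 and 48825 (4.63 ± 0.31, adjusted p = 2.73e-07). The platelet receptor genes rose with them: GP1BA, the von Willebrand factor receptor, from 2320.4 ± 443 to 22616 ± 4709 (3.28 ± 0.27, adjusted p = 1.42e-06), ITGB3 from 5311 ± 293 to 28183 ± 2521 (2.41 ± 0.14, adjusted p = 8.03e-08) and its partner ITGA2B from 525 ± 76.4 to 1548 ± 314 (1.55 ± 0.21, adjusted p = 6.91e-05). TUBB1, the tubulin of the platelet rim, went from 2203, 2066 and 2011 to 9294, 10864 and 11602 (2.33 ± 0.26, adjusted p = 1.86e-05). F13A1, the clotting factor XIII subunit, rose from 30.1 ± 7.70 to 359.5 ± 32.3 (3.56 ± 0.39, adjusted p = 1.44e-05). Not called were FLI1, a transcription factor of the lineage, at 410.5 ± 40.7 and 547 ± 43.7, and MMRN1, RAB27B, SPARC, GP6 and CD9. In bulk RNA a larger share of cells of a type and more RNA per cell cannot be told apart.

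Erythroid genes were mixed. Of 27 tested, 14 rose (51.9%) and 3 fell (11.1%), against 20.1% and 26.8% of all genes (median 0.96). With TMM scaling 1 fell. Of the 27, 7 had 3 or fewer untreated reads and were tested only through libraries where they were high. The count of rises and the median therefore carry no weight as a test. KLF1, the master factor of red cell genes, went from 6.19, 5.75 and 10.7 to 262, 292 and 404 (5.25 ± 0.28, adjusted p = 4.65e-08). Globin genes that had no read in untreated cells gained some: HBB reached 45.4, 25.4 and 36 (at least 35.8-fold higher) and the embryonic HBE1 25.2, 25.4 and 56.3 (at least 34-fold higher). SPTB, a gene of the red cell membrane skeleton, rose from 8.83 ± 4.98 to 120.1 ± 48.8 (3.70 ± 0.43, adjusted p = 2.58e-05). EPOR, the erythropoietin receptor gene, was at 4.95 ± 3.22 and 8.85 ± 2.96, not called. FECH, the last enzyme of haem synthesis, fell from 146 ± 43.2 to 51.3 ± 24 (−1.59 ± 0.44, adjusted p = 0.0112). ALAS2, the red cell enzyme that starts haem synthesis, was at 7 reads treated. The transcription factor GATA1, shared by both lineages, had 462, 461 and 823 and then 1597, 2022 and 2448, and its partners ZFPM1 (1.74 ± 0.34, adjusted p = 0.00126) and RUNX1 (1.34 ± 0.24, adjusted p = 0.000581) rose too.

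**Figure D2:**
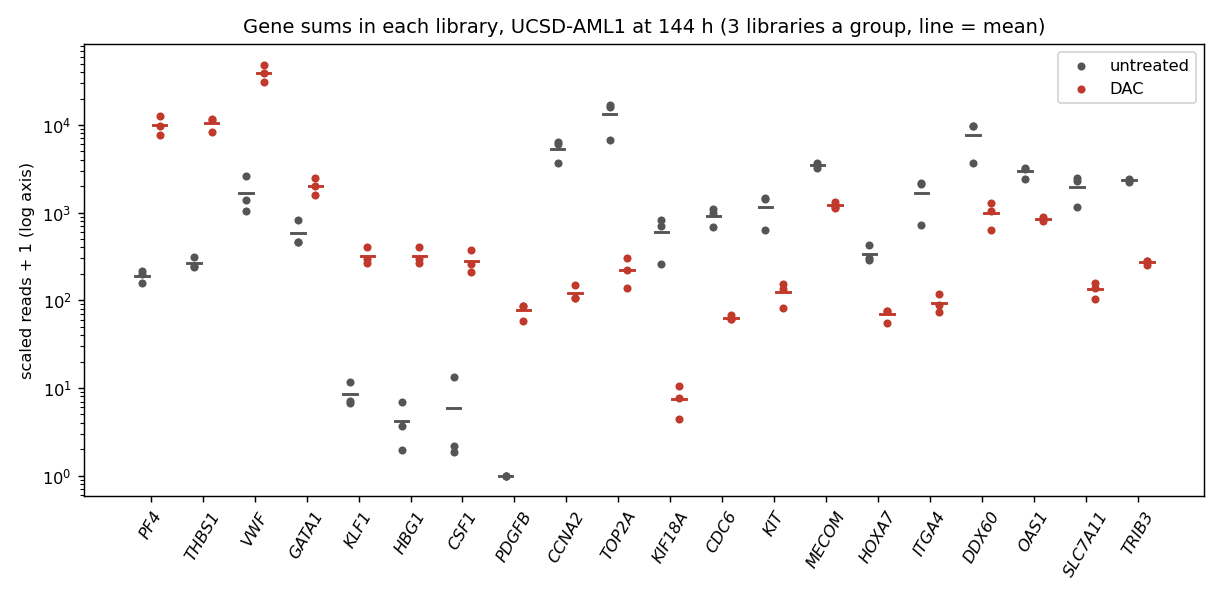
Gene sums plus 1 (scaled reads, log axis) in each of the 6 libraries for 20 genes, all but THBS1 (a platelet adhesion protein) named in the text; grey points are untreated, red points DAC, and lines are means of 3 libraries. The 20 genes were picked with their changes known, so the gap between the groups carries no weight as a test. VWF, for example, was at 1047 to 2622 untreated and 30674 to 48825 with DAC.

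Other mature lineages showed no common direction. Of 17 granulocyte genes 5 rose (29.4%) and 7 fell (41.2%), against 20.1% and 26.8% of all genes. MMP9, the gelatinase of neutrophil granules, went from 53, 45.1 and 60.8 to 2228, 2549.8 and 3937 (5.72 ± 0.27, adjusted p = 2.46e-08), and lysozyme, LYZ, from 66.9 ± 14.5 to 267 ± 45.5 (1.99 ± 0.21, adjusted p = 1.14e-05). The granulocyte receptors CSF3R (−1.70 ± 0.31, adjusted p = 0.00071) and CXCR2 (−3.07 ± 0.44, adjusted p = 0.000133) fell, as did CEBPA, the factor that directs the lineage (536 ± 52.4 to 233 ± 46.1; −1.21 ± 0.29, adjusted p = 0.00496). Of 15 monocyte genes 6 rose and 2 fell, among them FCGR2A, an antibody receptor (1.69 ± 0.17, adjusted p = 6.62e-06), and the lectin gene FCN1 (−2.06 ± 0.37, adjusted p = 0.000688). The shares of monocyte genes that rose and fell were 40% and 13.3%. Without untreated replicate 1, untreated replicate 2 or treated replicate 3 only 1 of the 2 falls was called. Of 12 mast cell and basophil genes 3 rose (25%), and 5 rose with the replicate block. CLC, the Charcot-Leyden crystal protein of basophils and eosinophils, went from 3 reads to 430 (a ratio of 134 (95% interval 45.6 to 652)), HDC, the histamine-forming enzyme, from 0.88, 0 and 0 to 28.6, 35.9 and 30.4 (a ratio of 95.4 (95% interval 16.7 to 3804)) and FCER1A, the IgE receptor chain, from 22.9 ± 12.2 to 159.8 ± 94.8 (2.73 ± 0.68, adjusted p = 0.00559). The natural killer cell gene GNLY came up from 1 read to 71.4, 99.7 and 134 (a ratio of 297 (95% interval 53 to 11781)) while KLRF1 had none, and the B cell receptor chains CD79A (−2.18 ± 0.28, adjusted p = 5.22e-05) and CD79B (−1.91 ± 0.36, adjusted p = 0.00103) fell, whereas PAX5, a master factor of B cells, rose from 43.5 ± 13.2 to 119.9 ± 13.1 (1.48 ± 0.22, adjusted p = 0.000161). The endothelial markers KDR (1.77, 0 and 3.58 to 60.5, 63 and 41.7; 4.56 ± 0.63, adjusted p = 9.28e-05) and CDH5 (1219 ± 157 to 2908 ± 399; 1.25 ± 0.32, adjusted p = 0.00709) rose; their summed level with TEK was 1206 to 1459 untreated and 2963 to 3749 treated. Whether a subset of cells carried these genes was not tested.

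Stem and progenitor genes leaned lower. Of 23 tested, 12 fell and 3 rose. With TMM scaling in limma 7 fell and 7 rose, so the lean was lost; 7 fell without untreated replicate 1 and also without untreated replicate 2, and 5 rose with the replicate block and without untreated replicate 3. KIT, the stem cell factor receptor, had 1469.6, 1414 and 632 in untreated and 153, 134 and 81.1 in treated libraries (−3.20 ± 0.55, adjusted p = 0.000609). MECOM, the EVI1 gene that marks this line, had 3699, 3493 and 3187 and then 1317, 1139 and 1172 (−1.52 ± 0.24, adjusted p = 0.000226), and the groups did not overlap for either gene. BMI1, a polycomb gene needed for stem cell renewal, fell from 1527 ± 766 to 249.7 ± 49 (−2.46 ± 0.36, adjusted p = 0.00017), LMO2, a bridge protein of blood transcription complexes, from 891 ± 47.7 to 403 ± 66.3 (−1.16 ± 0.18, adjusted p = 0.000192) and the surface gene CD200 from 33.1 ± 4.13 to 4.44 ± 1.09 (−2.66 ± 0.36, adjusted p = 8.15e-05). CD34 went from 277, 272 and 286 to 129, 140 and 142 (−1.02 ± 0.21, adjusted p = 0.00149), and the change was −0.47, adjusted p = 0.0984 when retained-intron and processed transcripts were left out of the sums. GATA2 was at 1152 ± 149 and 1247 ± 104 (0.12 ± 0.15, adjusted p = 0.553), MYC at 76.7 ± 10.4 and 83.1 ± 5.09 (0.12 ± 0.22, adjusted p = 0.684), and neither was called. GATA2 took a log2 change of −0.40 (adjusted p = 0.0174) after the GC trend of each library was removed.

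Of 12 HOX genes tested, 6 fell and 1 rose, and every fall lay in the HOXA cluster, whose genes keep progenitors self-renewing. HOXA7 had 302, 287 and 427 in untreated and 54.6, 75.2 and 74.3 in treated libraries (−2.29 ± 0.26, adjusted p = 1.83e-05). HOXA9, the best known leukaemia gene of the cluster, went from 33.6, 29.7 and 27.4 to 4.20, 8.75 and 4.50 (−2.25 ± 0.33, adjusted p = 0.00014), HOXA10 from 217 ± 22.2 to 90.1 ± 13.5 (−1.27 ± 0.19, adjusted p = 0.000187), HOXA11 from 30.2 ± 3.71 to 2.64 ± 2.10 (−3.24 ± 0.43, adjusted p = 6.87e-05), HOXA5 from 64.1 ± 7.22 to 19.3 ± 4.73 (−1.70 ± 0.23, adjusted p = 7.6e-05) and HOXA6 from 41.3 ± 12.8 to 15.2 ± 3.65 (−1.37 ± 0.31, adjusted p = 0.00279). HOXA2 and the tested HOXB2, HOXB3 and HOXB4 were not called, and HOXB5 rose from 2.00 ± 0.911 to 12.5 ± 3.75 (2.19 ± 0.56, adjusted p = 0.00636). MEIS1, the partner of HOXA9, was at 1311 ± 434 and 1824 ± 152 (0.53 ± 0.24, adjusted p = 0.0804), not called.

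A group of genes was close to silent in untreated cells. Of the protein-coding genes called higher, 290 had 3 or fewer reads over the 3 untreated libraries and 152 had none; in the other direction 48 of those called lower had 3 or fewer reads after DAC. Such a gene passed the filter only through the libraries where it was high, so the counts carry no weight as a test. PF4V1, a platelet chemokine gene next to its near copy PF4, went from 1.77, 0 and 0 to 530.1, 570.3 and 797 (a ratio of 931 (95% interval 257 to 7691)). C3, the central complement component, went from 2 reads to levels of 403, 667 and 776 (a ratio of 903 (95% interval 249.7 to 7464)). B3GNT7, a sugar transferase of keratan sulphate chains, went from 1 read to 302, 414 and 555 (a ratio of 1239.8 (95% interval 222 to 49008)). ZNF595, a KRAB zinc finger gene at the end of chromosome 4, had no read in untreated cells and 308, 349.9 and 304 after DAC (at least 323-fold higher). PTGIS, the prostacyclin synthase, reached 223, 271 and 284 (a ratio of 774 (95% interval 139 to 30616)), MYOC, the gene of the eye protein myocilin, 142, 225 and 218 (a ratio of 579.7 (95% interval 104 to 22934)) and AQP2, the water channel of the kidney collecting duct, 168, 169.7 and 207 (a ratio of 270.2 (95% interval 74.5 to 2237)). RAG2, a recombinase of lymphocyte receptor genes, was the reverse case: it went from 139, 112 and 99 to 0 reads (at least 127-fold lower).

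The promoters of 4 of these genes are shown, from the same RefSeq set, because they differ in how many CpG sites a window holds. CpG sites are in capitals. PF4V1 lies at chr4:73853046-73853345, B3GNT7 at chr2:231395460-231395759, ZNF595 at chr4:53071-53370 and AQP2 at chr12:49950487-49950786, all on the plus strand.
PF4V1: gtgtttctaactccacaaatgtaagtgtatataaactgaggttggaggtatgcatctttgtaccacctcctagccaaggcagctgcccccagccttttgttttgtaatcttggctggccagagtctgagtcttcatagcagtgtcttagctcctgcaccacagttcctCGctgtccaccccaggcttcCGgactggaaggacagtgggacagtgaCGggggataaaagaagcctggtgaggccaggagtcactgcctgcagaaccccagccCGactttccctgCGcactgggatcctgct
B3GNT7: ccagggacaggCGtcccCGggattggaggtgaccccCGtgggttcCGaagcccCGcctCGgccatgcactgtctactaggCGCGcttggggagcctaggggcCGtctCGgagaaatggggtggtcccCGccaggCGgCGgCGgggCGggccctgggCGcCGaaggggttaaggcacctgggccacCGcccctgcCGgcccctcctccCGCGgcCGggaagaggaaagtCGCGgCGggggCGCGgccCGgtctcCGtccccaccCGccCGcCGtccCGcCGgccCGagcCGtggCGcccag
ZNF595: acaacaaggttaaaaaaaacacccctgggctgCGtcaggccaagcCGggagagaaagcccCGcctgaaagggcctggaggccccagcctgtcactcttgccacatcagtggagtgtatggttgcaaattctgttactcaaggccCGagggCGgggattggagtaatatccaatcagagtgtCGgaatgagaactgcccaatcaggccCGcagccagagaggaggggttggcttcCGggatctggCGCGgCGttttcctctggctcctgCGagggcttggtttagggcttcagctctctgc
AQP2: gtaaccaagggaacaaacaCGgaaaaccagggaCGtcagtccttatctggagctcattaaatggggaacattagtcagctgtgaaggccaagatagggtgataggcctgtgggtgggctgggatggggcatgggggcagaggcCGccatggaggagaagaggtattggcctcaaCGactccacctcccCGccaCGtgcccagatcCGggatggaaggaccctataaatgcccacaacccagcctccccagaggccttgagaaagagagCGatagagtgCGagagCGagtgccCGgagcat
The windows hold 5, 37, 12 and 11 CpG sites in that order. Over 218 genes with 3 or fewer untreated reads that were called higher and had a window, the median was 14 (quartiles 6 and 31), against 26 (18 and 34) over the 9076 tested protein-coding genes. Over all 27305 windows the median was also 14 (3 and 28). The 218 genes were picked for few untreated reads, and silent genes that did not rise were not compared. All genes called higher had a median of 27 and those called lower of 26. Methylation itself was not measured in these files.

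Of 40 cancer-testis antigens matched, normally expressed in the germ line and in tumours, 16 reached the filter and 13 of these rose (median 2.88, or 3.15 with genes near 0 at their bound); with only the 6 UCSD-AML1 libraries in the fit, which lowers the number tested, 5 rose. As 14 of the 16 had 3 or fewer untreated reads, they were tested only through libraries where they were high, and the count and median carry no weight as a test. MAGEC2 had no read untreated and 106, 117 and 155 treated (at least 124-fold higher), CTAG2 24.4, 32.4 and 33.8 (at least 29.9-fold higher) and MAGEA1 26.9, 18.4 and 39.4 (at least 27.4-fold higher). MAGEB2 went from 2 reads to 123, 96.2 and 91.2 (a ratio of 158 (95% interval 43.3 to 1306)). The MAGE genes are close copies, so their separate levels are uncertain. Of 56 germ-cell and piRNA pathway genes, 19 were tested, 6 rose (31.6%) and 3 fell (15.8%). DAZL, an RNA-binding protein of germ cells, came from 0 reads to 101, 97.1 and 158 (at least 116-fold higher), TDRD12, a piRNA pathway helicase, from 3.54, 0.96 and 0 to 50.4, 64.7 and 45 (4.70 ± 0.56, adjusted p = 2.95e-05) and SYCE1, of the synaptonemal complex, from 0 reads to 19.3, 16.6 and 14.6 (at least 17.1-fold higher). SOHLH2, a germ-cell transcription factor, fell from 35.4 ± 14.6 to 5.62 ± 2.97 (−2.50 ± 0.61, adjusted p = 0.00504). Of 51 clustered protocadherin genes, neuronal adhesion genes in arrays on chromosome 5, 24 were tested, 16 rose and none fell (median 1.83). With only the 6 libraries in the fit 9 rose. Of the 24, 10 had 3 or fewer untreated reads and were tested only through libraries where they were high. The share of rises (66.7%, against 20.1% of all genes) and the median therefore carry no weight as a test. PCDHGC3 went from 57.5, 49.9 and 89.5 to 657, 880 and 1031 (3.71 ± 0.26, adjusted p = 3.57e-07) and PCDHGB7 from 2.34 ± 0.555 to 50.5 ± 13.1 (3.92 ± 0.40, adjusted p = 9.46e-06). Members of the gamma array share their last exons, so reads there cannot be given to 1 member. Of 25 imprinted genes 9 rose (36%) and 4 fell (16%), against 20.1% and 26.8% of all genes. With TMM scaling in limma 2 fell. The noncoding KCNQ1OT1, which silences its neighbours on the paternal chromosome, rose from 332 ± 73.3 to 2321 ± 273 (2.82 ± 0.22, adjusted p = 9.58e-07), and the noncoding MEG3 from 153 ± 53.8 to 564 ± 79.5 (1.92 ± 0.46, adjusted p = 0.00443).

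Besides these, the largest rises with more than 3 untreated reads included HBG1 (6.42 ± 0.53), CSF1, NR5A1, LYVE1, PGC, RGS6, DHRS2, A2M and XKR4. CSF1, the macrophage growth factor, had 0.88, 12.5 and 1.19 in untreated and 212, 257 and 375 in treated libraries (6.17 ± 0.62, adjusted p = 8.05e-06), with untreated replicate values far apart. NR5A1, the steroidogenic factor, went from 7.07, 5.75 and 13.1 to 519, 568 and 689 (6.01 ± 0.34, adjusted p = 8.03e-08). LYVE1, the hyaluronan receptor of lymphatic vessels, went from 5.76 ± 3.62 to 374 ± 25.6 (5.94 ± 0.43, adjusted p = 5.59e-07) and PGC, a pepsinogen gene of the stomach, from 6.19, 2.88 and 1.19 to 189, 250.2 and 292 (5.93 ± 0.52, adjusted p = 2.68e-06). A2M, a blood protease inhibitor, went from 4.46 ± 1.92 to 291 ± 14.1 (5.81 ± 0.39, adjusted p = 2.47e-07) and DHRS2, a short-chain dehydrogenase gene, from 3.18 ± 2.70 to 209 ± 10.4 (5.85 ± 0.39, adjusted p = 2.34e-07). RGS6, a regulator of G protein signals, and XKR4 reached 204 ± 36.1 and 169.8 ± 12.7.

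Cytokines and growth factors had more rises than falls. Of 22 cytokines and growth factors 10 rose (45.5%, against 20.1% of all genes) and 3 fell. PDGFB, a growth factor stored in platelets, came from 0 reads to 56.3, 84.8 and 85.6 (at least 74.8-fold higher). VEGFA, the endothelial growth factor, went from 214, 239 and 192 to 2459, 2356 and 2961 (3.58 ± 0.16, adjusted p = 1.64e-08), BMP6 from 76.5 ± 10.1 to 1134 ± 23.2 (3.88 ± 0.23, adjusted p = 9.16e-08) and TGFB1 from 3106 ± 1836 to 8130.5 ± 2229 (1.51 ± 0.37, adjusted p = 0.00601). TNFSF13B, the B cell factor BAFF, fell from 369.6, 343 and 112 to 10.9, 11.4 and 24.8 (−3.96 ± 0.57, adjusted p = 0.000158). Of 28 genes of the TGF-beta pathway 10 rose (35.7%), 15 were not called and 3 fell (5 fell without untreated replicate 3). The latency protein LTBP1 rose from 70.5 ± 15.8 to 344 ± 55.5 (2.28 ± 0.49, adjusted p = 0.00237), and the BMP targets ID1 (−1.76 ± 0.21, adjusted p = 2.56e-05) and ID3 (−1.79 ± 0.43, adjusted p = 0.00432) fell.

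Targets of NF-kB and inflammation numbered 27, of which 15 rose and 1 fell (median 0.75). The subunit genes RELB (10.6, 7.67 and 21.5 to 94.9, 88.3 and 110.3; 2.91 ± 0.38, adjusted p = 5.83e-05) and NFKB2 (53.8 ± 10.3 to 250.4 ± 46.8; 2.20 ± 0.26, adjusted p = 3.03e-05) rose with the inhibitor TNFAIP3 (720.2 ± 161 to 4274 ± 450; 2.58 ± 0.17, adjusted p = 2.47e-07) and the chemokine CXCL1 (1301 ± 153 to 6924 ± 459; 2.42 ± 0.19, adjusted p = 1.16e-06). Of 27 AP-1 and immediate early genes, which respond within minutes to growth factors and stress, 18 rose and 2 fell (median 1.03). NR4A1, an orphan receptor, went from 8.84, 4.79 and 21.5 to 116, 141 and 159 (3.67 ± 0.51, adjusted p = 9.79e-05) and JUN from 245, 219 and 252 to 1353, 1458 and 1958 (2.72 ± 0.19, adjusted p = 4.67e-07). EGR1 (2.08 ± 0.34, adjusted p = 0.000323) and the phosphatase DUSP1 (2.56 ± 0.19, adjusted p = 5.27e-07) rose, and DUSP6, a phosphatase for ERK, fell from 863 ± 334 to 364 ± 7.17 (−1.16 ± 0.25, adjusted p = 0.0023). The cells grow on GM-CSF, and of 24 genes of that signal 11 rose (45.8%) and 5 fell (20.8%). Among all genes 20.1% rose and 26.8% fell. Without untreated replicate 2, 7 of the GM-CSF genes rose. The receptor alpha chain CSF2RA was listed at 0 in both groups, so its level could not be judged. The receptor beta chain CSF2RB rose from 11.5, 10.6 and 3.58 to 49.6, 49 and 65.3 (2.66 ± 0.39, adjusted p = 0.000161), its kinase JAK2 from 93.5 ± 11 to 324 ± 15 (1.79 ± 0.25, adjusted p = 9.45e-05) and the feedback inhibitor SOCS3 from 1023 ± 33.2 to 4198 ± 931 (2.01 ± 0.21, adjusted p = 9.45e-06). PTPN11, the SHP2 phosphatase, fell from 7402 ± 1131 to 3319.6 ± 543 (−1.16 ± 0.19, adjusted p = 0.000318), and SPRED1, an inhibitor of RAS signalling, from 774 ± 186 to 184 ± 15.6 (−2.04 ± 0.28, adjusted p = 9.19e-05).

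Interferon-stimulated genes leaned lower. Of 51 tested, 28 fell and 2 rose (median −0.85; 23 lower and 5 higher with TMM scaling in limma). DDX60, which helps to sense viral RNA, had 9613, 9723 and 3700.1 in untreated and 1281, 1030.4 and 629 in treated libraries (−2.90 ± 0.47, adjusted p = 0.0004). IFIH1, the double-stranded RNA sensor MDA5, fell from 2787 ± 925 to 882 ± 98 (−1.60 ± 0.34, adjusted p = 0.00207). The double-stranded RNA sensors of the OAS family fell with them: OAS1 from 2949 ± 462 to 838 ± 41.6 (−1.80 ± 0.17, adjusted p = 4.87e-06) and OAS2 from 7950.1 ± 1537 to 1732 ± 146 (−2.18 ± 0.23, adjusted p = 9.55e-06). GBP1, a guanylate-binding protein, fell from 458 ± 102 to 70.4 ± 12.8 (−2.67 ± 0.32, adjusted p = 3.17e-05), whereas GBP4 rose from 2732 ± 427 to 5735 ± 266 (1.08 ± 0.18, adjusted p = 0.000461) and the transcription factor IRF1 from 229.9 ± 25.5 to 388 ± 34.1 (0.75 ± 0.17, adjusted p = 0.00292). In 13 HLA class I presentation genes 2 rose and 2 fell (15.4% each, against 20.1% and 26.8% of all genes). NLRC5, the activator of class I genes, rose from 122, 137 and 168 to 773, 876 and 1112 (2.68 ± 0.20, adjusted p = 5.59e-07), and ERAP2, a peptide trimming enzyme, fell from 73.9 ± 41.6 to 11.8 ± 6.44 (−2.46 ± 0.57, adjusted p = 0.00368). The other rise, of the chaperone CALR, was −0.21, adjusted p = 0.767 without retained-intron and processed transcripts. Among class II genes, the transactivator CIITA fell from 129.9 ± 33.9 to 65.1 ± 2.31 (−0.96 ± 0.19, adjusted p = 0.00128) and the invariant chain CD74 from 467 ± 11.5 to 223 ± 27.1 (−1.07 ± 0.21, adjusted p = 0.00115). The T cell ligand TNFSF9 (4-1BBL) rose from 602 ± 37.8 to 2587 ± 475 (2.09 ± 0.18, adjusted p = 2.72e-06).

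Genes of amino acid supply and of ribosome assembly leaned lower. Of 27 ATF4 targets and amino acid genes, which supply and import amino acids under stress, 17 fell and 1 rose (median −1.14). The cystine importer SLC7A11 had 2283, 2449.6 and 1169 in untreated and 156, 137 and 104 in treated libraries (−3.83 ± 0.29, adjusted p = 6.63e-07), and the pseudokinase TRIB3 2339.7, 2242 and 2433 and 278, 277 and 251 (−3.12 ± 0.16, adjusted p = 4.08e-08). PHGDH, which starts serine synthesis, fell from 24.1 ± 9.25 to 1.13 ± 1.28 (−3.68 ± 0.47, adjusted p = 4.79e-05). Of 43 ribosome biogenesis genes 29 fell and 2 rose (median −0.92; 19 lower with edgeR and TMM). NPM1, the nucleolar chaperone often mutated in AML, went from 2184, 2362 and 685 to 214, 178 and 52.9 (−3.58 ± 0.80, adjusted p = 0.00327), and UTP20, a factor of early rRNA processing, from 1425 ± 338 to 197 ± 69.3 (−2.89 ± 0.34, adjusted p = 3.27e-05). Of 80 ribosomal protein genes 36 fell, a count that TMM scaling in limma lowered to 17, and such genes have many processed copies. RPS6 went from 735 ± 71.9 to 298 ± 38 (−1.30 ± 0.17, adjusted p = 7.02e-05). Of 36 nuclear genes of the respiratory chain 14 fell (38.9%) and 4 rose (11.1%), against 26.8% and 20.1% of all genes. All 4 rises were lost without retained-intron and processed transcripts. Without untreated replicate 2, 1 rose, and 2 without treated replicate 1. TFAM, which packs and transcribes mitochondrial DNA, fell from 1041 ± 517 to 147 ± 17.3 (−2.66 ± 0.34, adjusted p = 5.98e-05).

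Lysosomal genes had more rises than falls. Of 44 tested, 21 rose (47.7%) and 9 fell (20.5%), against 20.1% and 26.8% of all genes. Without retained-intron and processed transcripts 13 rose. The protective protein CTSA rose from 149, 178 and 239.8 to 707, 723 and 788 (1.99 ± 0.22, adjusted p = 1.49e-05), the cholesterol exporter NPC1 from 34.8 ± 9.72 to 119.8 ± 4.81 (1.79 ± 0.25, adjusted p = 9.72e-05) and TFEB, the factor that switches on lysosomal genes, from 11.4 ± 1.86 to 40.1 ± 19.9 (1.59 ± 0.38, adjusted p = 0.00455). PPT1, a thioesterase, fell from 1156 ± 557 to 103 ± 48.6 (−3.47 ± 0.68, adjusted p = 0.00144). Of 25 cholesterol genes 8 rose (32%) and 3 fell (12%), and 14 and 1 with TMM scaling in limma. Without retained-intron and processed transcripts 5 rose, and 1 fell without treated replicate 2. ABCA1, which exports cholesterol, rose from 2.65, 2.88 and 7.16 to 42.9, 28 and 52.9 (3.07 ± 0.32, adjusted p = 9.88e-06) and SQLE, a rate-limiting enzyme of cholesterol synthesis, from 1362 ± 70.0 to 3003 ± 421 (1.13 ± 0.17, adjusted p = 0.000167). Among 24 glycolysis genes 7 rose (29.2%) and 10 fell (41.7%), a balance that turned with TMM scaling in limma (8 higher, 6 lower). Without untreated replicate 1, 4 rose. The hexokinase HK3 rose from 149 ± 15.4 to 622 ± 134 (2.04 ± 0.37, adjusted p = 0.000784) and PGK1, a kinase of the lower pathway, fell from 1407 ± 387 to 373 ± 47.2 (−1.88 ± 0.25, adjusted p = 7.67e-05).

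Of 29 p53 targets 10 rose (34.5%) and 2 fell (6.9%), against 20.1% and 26.8% of all genes. Without treated replicate 2, 1 fell. TP53INP1, a stress protein gene, came from 0 reads to 28.6, 15.8 and 42.8 (at least 28.1-fold higher), the growth factor GDF15 rose from 66.5 ± 12.1 to 364 ± 23.8 (2.45 ± 0.37, adjusted p = 0.000187) and BTG2, a brake on proliferation, from 805, 745 and 713 to 2279, 2533 and 2405 (1.67 ± 0.14, adjusted p = 2.25e-06). Of 16 BCL2 family genes 5 rose (31.2%) and 4 fell (25%). Without treated replicate 3 there were 3 rises, and 2 after the GC trend was removed. BCL2L11, the death activator BIM, rose from 89.3, 78.6 and 113 to 285, 406 and 285 (1.78 ± 0.19, adjusted p = 1.29e-05), and BCL2, which holds such activators in check, fell from 748, 799 and 372 to 202, 219.6 and 222 (−1.50 ± 0.29, adjusted p = 0.00127). BIK, another death activator, fell from 1528 ± 63.2 to 433 ± 78.1 (−1.83 ± 0.19, adjusted p = 1.05e-05).

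Genes of DNA methylation, the process that DAC blocks, leaned lower. Of 22 genes of DNA methylation and its reading or removal, 11 fell (50%) and 2 rose (9.09%), against 26.8% and 20.1% of all genes. With TMM scaling 8 fell and 4 rose, both in limma and in edgeR. Without treated replicate 3, 4 rose. HELLS, a helicase that opens chromatin for methylation, had 396, 497 and 291 in untreated and 7.56, 40.2 and 11.3 in treated libraries (−4.57 ± 0.46, adjusted p = 9.85e-06). TET1, which oxidises methylated cytosine, went from 821, 739 and 474 to 153, 126 and 73.2 (−2.55 ± 0.30, adjusted p = 2.97e-05). DNMT3B, a de novo methyltransferase, fell from 26.5, 28.8 and 35.8 to 4.20, 10.5 and 9.01 (−1.88 ± 0.42, adjusted p = 0.00288) and DNMT3A was at 72.3 ± 8.78 and 49.9 ± 10.5 (−0.54 ± 0.25, adjusted p = 0.0898), not called. DNMT1, the maintenance enzyme, went from 130, 166 and 222 to 79, 104 and 136 (−0.69 ± 0.23, adjusted p = 0.0247), a call that depended on single libraries: its adjusted p was 0.0564 without untreated replicate 2, 0.0867 without untreated replicate 3, 0.109 without treated replicate 1 and 0.0571 without treated replicate 2, and 0.216 with edgeR and TMM. Of 16 genes of decitabine uptake and nucleotide metabolism 5 fell (31.2%, against 26.8% of all genes) and none rose. SAMHD1, which breaks down the active triphosphate, fell from 1558, 1483 and 1013 to 633, 508 and 766 (−1.08 ± 0.20, adjusted p = 0.000887) and the ribonucleotide reductase subunit RRM2 from 107 ± 19.6 to 17.2 ± 6.80 (−2.62 ± 0.27, adjusted p = 9.43e-06). Of 26 genes that silence retroelements 13 fell (9 with TMM scaling) and 2 rose. SUV39H1, a histone methyltransferase (−1.45 ± 0.25, adjusted p = 0.000453), and CBX5, the HP1 protein that binds its mark (−1.50 ± 0.18, adjusted p = 3.69e-05), were among the falls. The rises were MORC2, a chromatin compactor (1.01 ± 0.19, adjusted p = 0.000839), and EHMT1, another histone methyltransferase (1.18 ± 0.37, adjusted p = 0.0181), whose call was lost without untreated replicate 1, untreated replicate 2 or treated replicate 3; 4 rose without untreated replicate 3, with edgeR and TMM, and after the GC trend was removed. Of 214 zinc finger genes of chromosome 19, many of them KRAB repressors, 40 rose and 27 fell, shares of 18.7% and 12.6% that lie below the 20.1% and 26.8% of all genes. The count of falls was 17, 14 and 42 without untreated replicate 1, 2 and 3 in turn, and 19 rose with only the 6 libraries in the fit.

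Surface genes that hold cells to their niche were mixed. Of 25 integrin and adhesion genes 10 rose (40%) and 4 fell (16%), against 20.1% and 26.8% of all genes. After the GC trend was removed 8 fell. ITGA4, a chain of the fibronectin and VCAM1 receptor of progenitors, had 2128, 2188 and 717 in untreated and 117, 87.5 and 72.1 in treated libraries (−4.03 ± 0.62, adjusted p = 0.000252). ITGA10 rose from 19.9 ± 2.76 to 192 ± 22.4 (3.21 ± 0.43, adjusted p = 7.37e-05) and CD226, an adhesion receptor of platelets and killer cells, from 111 ± 24.6 to 826 ± 29.7 (2.91 ± 0.39, adjusted p = 7.12e-05).

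By annotated biotype, protein-coding genes had 21.9% rises and 25.6% falls, but the other classes were skewed. Of 827 lincRNA genes 29% rose and 11.1% fell, and of 1083 antisense genes 23.5% rose and 13.4% fell; the sources used here do not say whether counting used the strand, so reads of an antisense gene and its partner cannot be told apart. Of 2477 processed pseudogenes, copies of spliced transcripts, 5.77% rose and 49.3% fell. Of 56 miRNA genes 17 rose and 1 fell, but 9 fell after the GC trend of each library was removed. Of 34 snRNA genes none rose and 19 fell; without replicate 3 of both groups 11 snRNA genes fell, and 926 processed pseudogenes in place of 1222. Among noncoding genes with an official symbol, LINC01447 rose from 2.65, 6.71 and 1.19 to 137, 146 and 168 (5.25 ± 0.59, adjusted p = 1.81e-05), LINC00304 from 3.48 ± 5.27 to 66.5 ± 9.63 (4.63 ± 0.67, adjusted p = 0.000143) and LINC00520 from 3.33 ± 3.03 to 87.9 ± 15.2 (4.59 ± 0.48, adjusted p = 1.11e-05). TYMSOS, which overlaps the thymidylate synthase gene, fell from 119 ± 39.6 to 6.78 ± 5.88 (−4.16 ± 0.55, adjusted p = 7.03e-05), LINC01806 from 209 ± 82.9 to 11.9 ± 4.65 (−4.01 ± 0.66, adjusted p = 0.000393) and LINC01915 from 34.1 ± 14.1 to 2.07 ± 2.11 (−3.62 ± 0.50, adjusted p = 9.69e-05).

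**Figure D3:**
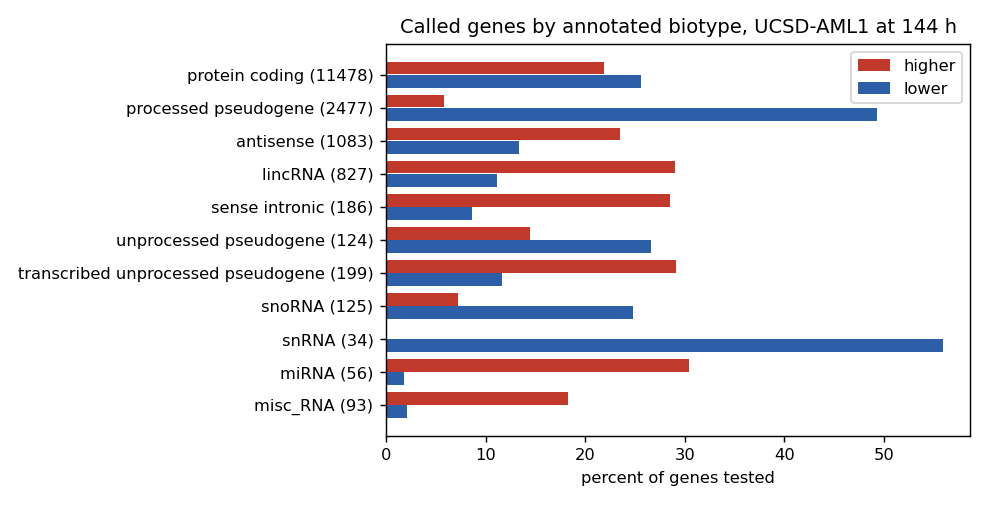
Percent of tested genes that rose (red) or fell (blue) with DAC in each GENCODE biotype, with the number tested in brackets. Processed pseudogenes (5.77% higher, 49.3% lower) and snRNA genes (none higher) lie opposite to lincRNA genes (29% higher, 11.1% lower).

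The GC content of genes moved with their change. Protein-coding genes that rose had a median GC content of 53.7%, those that fell 44.2% and the rest 48.5%. Chromosome medians followed: chromosome 19, at 58.4% GC, had a median log2 change of 0.27 and chromosome 13, at 41.9%, one of −0.47. After the GC trend of each library was removed these medians were 0.01 and −0.13, and over all genes 3446 rose and 5042 fell. The part of GC content in single changes was not tested.

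**Figure D4:**
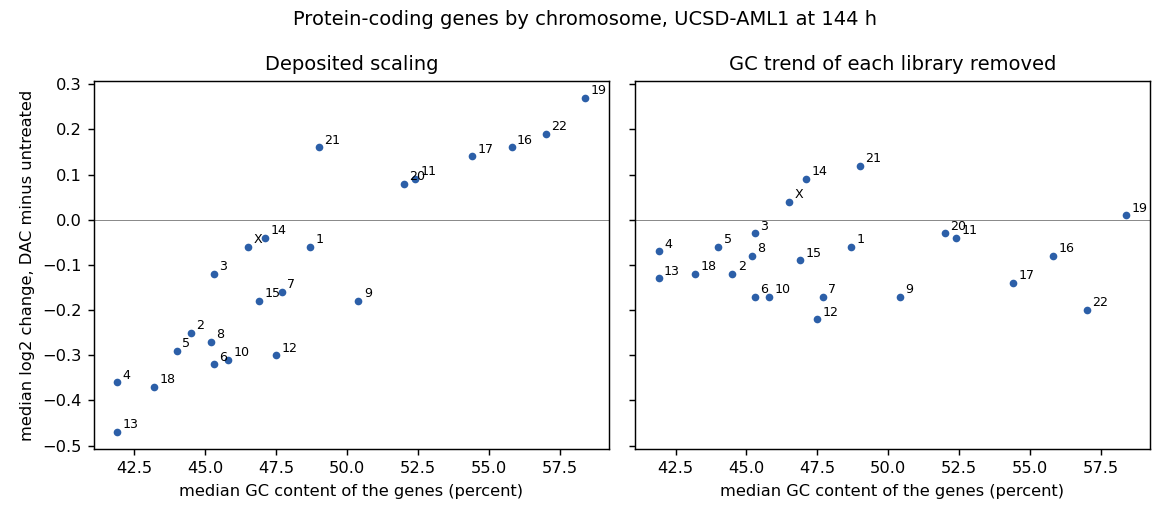
Median log2 change of protein-coding genes per chromosome (vertical axis) against the median GC content of those genes in percent (horizontal axis), with the deposited scaling at left and after removal of the GC trend of each library at right; numbers name the chromosomes. At left the medians climb from −0.47 (chromosome 13) to 0.27 (chromosome 19), and at right those 2 lie at −0.13 and 0.01.

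ELF-153, treated in the same way, was used to see where UCSD-AML1 differed. The test of the difference between the 2 DAC effects called 1741 genes with a higher change in UCSD-AML1 (10.1%) and 3420 with a lower one (19.9%), so that 30.0% of tested genes differed. The lean to lower changes depended on the scaling and was turned with TMM factors, to 2538 higher and 2025 lower in edgeR and 2824 and 2623 in limma. Mitochondrial ribosomal RNA was 24.3 ± 12.1% of the reads untreated and 47.0 ± 5.8% treated in ELF-153 (n = 3), and in UCSD-AML1 49.4 ± 4.3% and 51.2 ± 10.8%; with that share as a covariate the counts were 752 and 1732. MECOM fell in UCSD-AML1 but in ELF-153 went from 0.242 ± 0.419 to 12 ± 1.68 (log2 difference between the lines −4.95 ± 0.33, adjusted p = 1.01e-06). KIT was at 339 ± 305 and 365 ± 199.5 in ELF-153 (difference −3.54 ± 0.78, adjusted p = 0.00757). Of the mitotic genes 27 had a lower change in UCSD-AML1 and 1 a higher one (list median −3.28 against −1.43 in ELF-153). Of the interferon-stimulated genes 49 of 51 had a lower change in UCSD-AML1 (median −0.85 against 2.48). The platelet genes GP9 (difference −6.39 ± 0.54, adjusted p = 9.95e-06) and TUBB1 (−5.18 ± 0.37, adjusted p = 1.67e-06) rose less in UCSD-AML1, and VWF rose more (2.73 ± 0.43, adjusted p = 0.000949). ZNF595 went from 0 reads to 321 ± 25.3 in UCSD-AML1 and from 186 ± 32.9 to 1132 ± 92.2 in ELF-153.

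**Figure D5:**
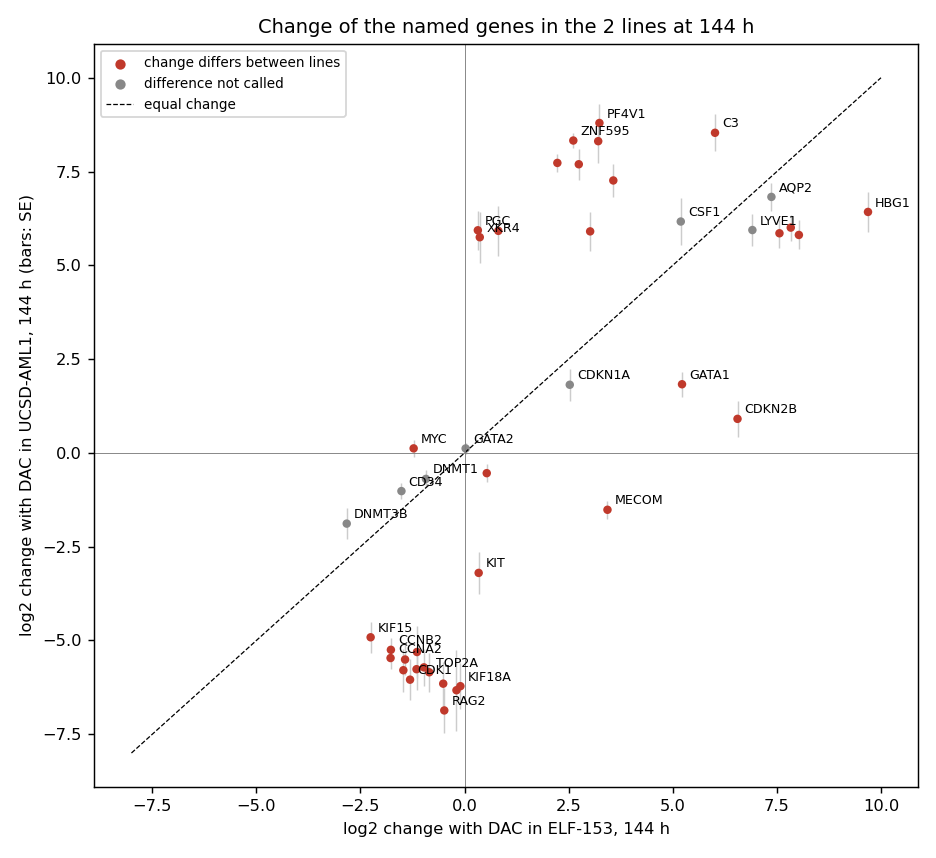
Log2 change with DAC at 144 h in ELF-153 (horizontal axis) and UCSD-AML1 (vertical axis, bars are standard errors) for the genes of the fixed set, the largest rises and falls and the genes near 0 reads; red points differ between the lines (adjusted p below 0.05), grey points do not, and the dashed line marks equal change. MECOM lies at 3.43 in ELF-153 and −1.52 in UCSD-AML1, and the mitotic genes, picked for their fall in UCSD-AML1, lie below the line.

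At 96 h the same line had levels scaled within another table, so they are set beside those at 144 h with no test. KIT was at 1752 ± 103 untreated and 361 ± 110.4 treated at 96 h, MECOM at 4002 ± 80.3 and 1850.3 ± 144, VWF at 1831 ± 141 and 21753 ± 7192, ITGA4 at 2546 ± 129.9 and 276 ± 136 and SLC7A11 at 319.7 ± 43.1 and 178 ± 38.8. For each of these 5 genes the treated mean lay on the same side of the untreated mean at both harvests. Other genes that fell at 144 h had a higher treated mean at 96 h. HAVCR2 was then at 249 ± 21 untreated and 340 ± 37.4 treated, and C3AR1 at 143 ± 29.4 and 155 ± 19.3. CHAC1, of the ATF4 list, was at 15.6 ± 0.914 and 65.3 ± 21.6. CD34 was at 287 ± 62.6 and 278 ± 18.9, so the 5 genes do not stand for all. Untreated levels also differed between the harvests. At 144 h CHAC1 was at 200 ± 21.2 untreated and 40.5 ± 4.88 treated. The untreated SLC7A11 mean at 96 h lay below each of its untreated libraries at 144 h. How far the falls of these 2 genes rest on the untreated level at 144 h was not tested.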

How the data were processed

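The 144 h table of 12 libraries (3 per group) was analysed; depth was 15.1 to 28.53 Mreads (mega-reads) assigned to transcripts. Per the file headers and values, the authors deposited signal: reads per transcript divided by 1 size factor per library. Dividing by this step recovered whole reads for 100% of non-zero values within 0.01. Per the submitters' processing notes, the build was hg19 and the tools, with no version or role, were STAR, TopHat2, HTSeq, FastQC and DESeq2. Gene sums used the transcript identifiers of GENCODE release 29 (GRCh38).

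The test was limma 3.58.1 (R 4.3.3; group means over the 12 libraries, eBayes with trend and robust) on log2(sum + 1) in genes that reached 10 in 3 or more libraries, at a Benjamini-Hochberg adjusted p below 0.05. The plan named a count test in case the file held raw counts; edgeR 4.0.16 and DESeq2 1.42.0 on the recovered reads are alternatives. Bounds used a floor of 3 reads over a group, intervals a level of 95%. Gene lists (43) are described by counts and medians, with no test. The members and lists were chosen with earlier results of these data known. Named were a fixed set (DNMT1, DNMT3A, DNMT3B, MECOM, CD34, KIT, GATA2, GATA1, MYC, CDKN1A, CDKN2B), the 10 largest rises and falls, 8 genes near 0 untreated and 4 treated, 6 long noncoding RNAs per direction and up to 4 list members per direction with the smallest adjusted p, with some left out for length. Other list members were picked after their values were seen, for their known roles. Not every gene that this rule picks is reported here.

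The reported fit has no replicate block, and a fit with the block is an alternative. Deviations of untreated and treated libraries with the same number correlated across genes by 0.13, 0.12 and 0.26, all above the 0.1 asked of a pairing; unlike numbers gave −0.2 to 0.14, so that untreated replicate 2 correlated better with treated replicate 1. The script was tested on simulated data. Figures used Python 3.11.15 with pandas 2.3.3, numpy 2.4.6, scipy 1.17.1 and matplotlib 3.10.9. Repeat families and transcript-level changes were not analysed here.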

Additional observations from a re-analysis of the deposited data

Results flagged for a closer look

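The results below stand out because the DAC effect differed between the 2 lines, by limma's test of the difference itself; values are the log2 change in UCSD-AML1 minus that in ELF-153 at 144 h. Over all genes 1741 had a higher and 3420 a lower change in UCSD-AML1, a lean that turned with TMM scaling (2538 and 2025 in edgeR, 2824 and 2623 in limma). All but the fixed set were picked for a large change in UCSD-AML1, which favours a large difference. Differences of genes with 3 or fewer reads in a group depend on the pseudocount.

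In the fixed set the differences were DNMT3A −1.07 (adjusted p = 0.0364), MECOM −4.95 (adjusted p = 1.01e-06), KIT −3.54 (adjusted p = 0.00757), GATA1 −3.39 (adjusted p = 0.000389), MYC 1.34 (adjusted p = 0.00941) and CDKN2B −5.65 (adjusted p = 0.000141). MECOM and DNMT3A had changes of opposite sign in the 2 lines (−1.52 and −0.54 in UCSD-AML1, 3.43 and 0.53 in ELF-153). Of the largest rises, PGC and XKR4 hardly moved in ELF-153 (changes of 0.32 and 0.37): PGC 5.61 (adjusted p = 0.000253), XKR4 5.38 (adjusted p = 0.00198) and RGS6 2.89 (adjusted p = 0.0135) had the higher change in UCSD-AML1. The fetal globin gene HBG1 and others rose more in ELF-153: HBG1 −3.27 (adjusted p = 0.00904), NR5A1 −1.83 (adjusted p = 0.0164), DHRS2 −1.71 (adjusted p = 0.0335) and A2M −2.22 (adjusted p = 0.0116).

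Among the genes near 0 reads untreated, PF4V1 5.56 (adjusted p = 0.000209), C3 2.52 (adjusted p = 0.0186), B3GNT7 5.10 (adjusted p = 0.000947), ZNF595 5.72 (adjusted p = 6.82e-08), ERV3-1 5.50 (adjusted p = 5.46e-07), PTGIS 4.95 (adjusted p = 0.000116) and MYOC 3.69 (adjusted p = 0.00128) had the higher change in UCSD-AML1. Genes of mitosis and replication had the lower one: ASPM −6.13 (adjusted p = 0.0127), KIF18A −6.12 (adjusted p = 0.000486), NDC80 −5.64 (adjusted p = 0.000672), TOP2A −5.00 (adjusted p = 0.000648), DTL −4.32 (adjusted p = 0.00318), CEP55 −4.61 (adjusted p = 0.00162), KIF14 −4.74 (adjusted p = 0.000705), NCAPG −4.08 (adjusted p = 0.000551), CCNA2 −3.69 (adjusted p = 6.68e-05) and DSCC1 −4.16 (adjusted p = 0.00997). So did those near 0 after DAC: CDK1 −4.74 (adjusted p = 0.00123), RAG2 −6.38 (adjusted p = 0.000249), CCNB2 −3.48 (adjusted p = 0.000177) and KIF15 −2.66 (adjusted p = 0.00692). KIF18A changed by −6.22 in UCSD-AML1 and −0.10 in ELF-153. The genes near 0 reads untreated were picked by their reads in UCSD-AML1, which favours a larger log2 change in that line. ERV3-1, for example, was at 389 ± 13.5 untreated and 1829 ± 65.7 treated in ELF-153. In UCSD-AML1 it was at 0.32 ± 0.554 and 265 ± 17.8.

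Signal also lay outside the gene sums. Of 1113 transcripts whose identifiers matched no gene in the annotation and that reached the filter, 200 rose and 181 fell with DAC. They were tested on their own. Among the genes tested, 20.1% rose and 26.8% fell.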

How the results depend on the processing

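Under the alternatives run, the counts of genes that rose and fell with DAC both stayed within 1.5 times of the reported ones: rises ranged from 2463 (genes at 50 or more) to 4541 (TMM scaling in limma) and falls from 3365 (edgeR with TMM) to 5791 (mitochondrial rRNA share as covariate). Leaving out 1 library gave 2830 to 3531 rises and 3488 to 4764 falls. With the replicate block 3366 genes rose and 4627 fell, and 1684 and 3482 had a higher or lower change than in ELF-153; the block changed the counts named beside it in the text. The line difference was less stable: of 1741 higher and 3420 lower, TMM scaling turned the balance to 2824 higher and 2623 lower in limma and 2538 and 2025 in edgeR; edgeR with RLE gave 2084 and 2233, and the mitochondrial rRNA covariate 752 and 1732. Leaving out 1 library gave 1033 to 2478 higher and 2008 to 4513 lower. The causes were not tested. Over 337 named genes, 6829 of 7017 values under alternatives kept their direction and side of the threshold, 164 lost the call (66 by leaving out 1 library), 21 gained it and 3 changed sign: CALR at −0.21 without retained-intron and processed transcripts, and GATA2 at −0.40 and MYC at −0.28 after removal of the GC trend. Counts of 5 or fewer list members often moved by 1.5 times and should be read as such. Depth limits genes near 0 reads, whose bounds rest on a floor of 3 reads.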

Other observations

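Complement and immune ligand genes moved without a common direction. Complement genes had 25% rises and 25% falls, near the 20.1% and 26.8% of all genes. Of 12 complement genes 3 rose and 3 fell: besides C3, the chaperone clusterin, CLU, went from 23.9, 12.5 and 20.3 to 112, 135 and 153 (2.79 ± 0.30, adjusted p = 1.2e-05) and CD55, which shields cells from complement, from 35.4 ± 11.3 to 127 ± 36.5 (1.82 ± 0.35, adjusted p = 0.000981). The terminal component C5 fell from 484, 469.8 and 245 to 91.6, 84 and 34.9 (−2.54 ± 0.52, adjusted p = 0.00194), the positive regulator properdin, CFP, from 122 ± 30.1 to 40.1 ± 18.3 (−1.67 ± 0.36, adjusted p = 0.00217) and the receptor C3AR1 from 187 ± 13 to 83.3 ± 7.45 (−1.16 ± 0.30, adjusted p = 0.00699). CD47, the signal that restrains macrophages, rose from 420 ± 53 to 946 ± 98.5 (1.17 ± 0.15, adjusted p = 5.8e-05). HAVCR2, the leukaemia stem cell marker TIM-3, fell from 286, 263 and 191 to 145, 104 and 65.3 (−1.28 ± 0.31, adjusted p = 0.00528), and the natural killer cell ligand ULBP1 from 58.3 ± 21.3 to 20.6 ± 1.83 (−1.39 ± 0.30, adjusted p = 0.00222). These are descriptions of single genes, and no hypothesis was tested on them.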
